A study of Mus musculus with 53 samples.

Results

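Aortic banding may change how much of each messenger RNA is bound to ribosomes in the heart, over and above its change in the RNA pool as a whole. That question was addressed with 1 number per gene. It is the log2 ratio of ribosome-bound (TRAP) RNA to input RNA after banding, minus the same ratio after sham surgery. The genes followed were those at 5 RPKM (a read count divided by transcript length and library depth) or more in all 4 group means, which left 4807 of the 34306 genes in the table. At that limit Myot, with a lowest group mean of 5.001 RPKM, was just inside, and Rab11fip3, at 4.999 RPKM, was just outside. This limit uses levels only and no difference between groups.

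All mice in the 4 groups were adults on which surgery was done. In the band groups the ascending aorta was tied against a 25 gauge needle, which narrows it and loads the left ventricle with pressure. In the sham groups the operation was the same without the ligature. The surgery protocol names male mice, and no time from surgery to RNA collection is stated in the labels. CAG marks a line that, in the labels of an earlier deposit of the same series, carries the TRAP tag in every cell lineage of mice of mixed 129/C57BL background. Both band and sham mice carried it, so that TRAP RNA in this comparison is not specific to a cell type. Input was cytoplasmic RNA. Per the labels' protocols the RNA put into library preparation was pooled. Each group, CAG_Sham_input, CAG_Sham_TRAP, CAG_Band_input and CAG_Band_TRAP, had 2 libraries, made from 16 of the 53 samples of the series. No label says whether both libraries of a group stem from different animals, so the p-values reflect library-to-library spread alone, part of which may be technical.

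Translating ribosome affinity purification pulls down ribosomes through a tag on a ribosomal protein and recovers the messenger RNA held on them. The ratio of TRAP to input for a gene therefore reads how well its message is represented on tagged ribosomes relative to the whole cytoplasm. Within 1 cell type, a message that changes in amount alone would keep its ratio. One held on ribosomes to a different degree than other messages would change it. The ratio also differed by cell type. After sham surgery the median log2 ratio of marker genes at 5 RPKM or more ran from -3.58 (erythroid) to 0.24 (cardiomyocyte). The part of cell mix in the changes of ratio was not tested. RPKM is divided by library depth, so a change of loading shared by all messages would not appear. The ratio can also move for RNA that is not on tagged ribosomes, as given below for mitochondrially encoded genes. Pressure overload is known to raise a set of stress genes in heart muscle, among them the natriuretic peptides, and to set off growth of the myocytes, for which protein synthesis rises. In bulk samples such as these, fewer cells of a type and less RNA per cell cannot be told apart.

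The 8 libraries held 28621316 to 48867104 reads. The input and TRAP libraries showed the markers of heart tissue, with 20 cardiomyocyte marker genes summing to 104620 to 110867 RPKM in input and 138247 to 143801 RPKM in TRAP RNA, and none of them was at 0. The 8 epicardial marker genes summed to 2.82 to 10.4 RPKM, and none of these genes reached the level needed to be a member. Replicates were close in 3 groups and less so in the band TRAP group. The median absolute difference between the 2 libraries, in log2(RPKM + 1), was 0.067 in sham input, 0.079 in sham TRAP, 0.094 in band input and 0.22 in band TRAP. Members that differed over 2-fold between the 2 libraries numbered 4, 20, 5 and 185 in the same order. Every estimate of the change in ratio rests in part on these 2 band TRAP libraries, and the effect of leaving out either one is given with the results.

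**Figure D1:**
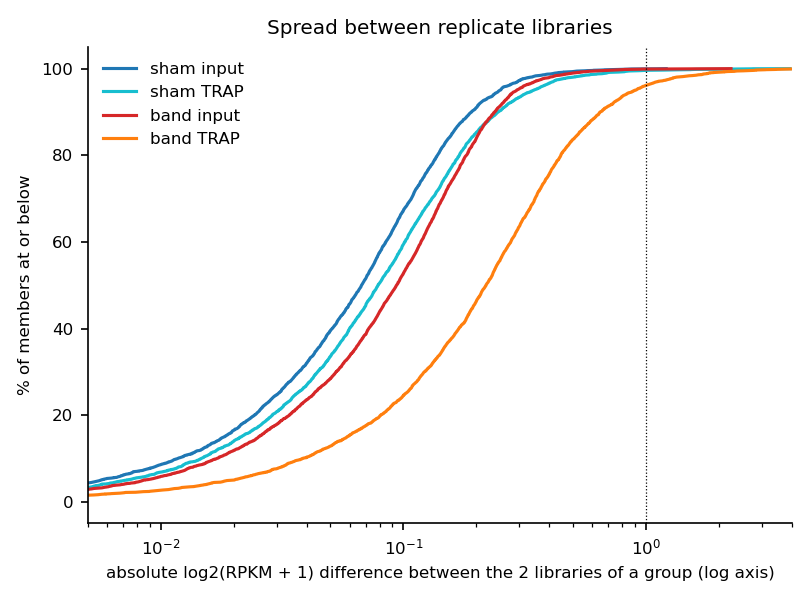
Cumulative percentage of the 4807 members (y axis) against the absolute log2(RPKM + 1) difference between the 2 libraries of a group (x axis, log scale), 1 line per group. The band TRAP line lies to the right of the other 3, with a median of 0.22 against 0.067 to 0.094, and the dotted line marks a 2-fold difference.

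No member passed the test for a change of its TRAP to input ratio with banding. By limma with Benjamini-Hochberg adjustment over all 11654 genes tested, 0 members were called higher and 0 lower, and the same was true of all genes tested (0%). With limma voom on the recovered read counts, 0 members were called higher and 0 lower too. On log2 RPKM the smallest adjusted p was 0.151. At an unadjusted p under 0.05 stood 112 members with a higher and 133 with a lower ratio after banding, 5.10% of members, beside 1.97% higher and 2.81% lower of all genes tested. The estimates centred on 0, with a median of 0.00 and quartiles of -0.13 and 0.12 on the log2 scale. From the 5th to the 95th percentile they ran from -0.40 to 0.30. Scaling to library depth favours a centre near 0, so the centre says nothing of a change shared by all messages. Only 2 members had an estimate above a 2-fold higher ratio, while 47 had one below a 2-fold lower ratio. Several of the 47, among them Gm15118, Trdn and Rpl5, were low in band TRAP library 2 alone. Others, such as Gm6265 and Gm5566, were low in both band TRAP libraries. The 47 are thus no measure of a general tilt to lower ratios.

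The intervals give the precision of the estimates. For 4362 members (90.7%), the 95% interval of the change in ratio lay wholly within 2-fold in either direction, and for 2978 members (62.0%) it lay within 1.5-fold. The median distance from estimate to either bound was 0.37 on the log2 scale, or 1.29-fold. These intervals are not adjusted for the number of genes, and estimates as far from 0 as -1.70 (Gm6265) missed the adjusted threshold. The 4 band ratios, formed from each TRAP and each input library, lay wholly above the 4 sham ratios in 482 members (10.03%) and wholly below in 465 (9.67%), beside 9.6% and 8.95% of all genes tested.

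Both counts of 0 depended on the band TRAP pair. With band TRAP library 1 or band TRAP library 2 left out, members were called in both directions, more of them lower than higher. The single band TRAP library that is left is then assumed to vary like the other groups, whose replicates differed less. Leaving out any of the other 6 libraries gave 0 calls in both directions.

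Members called with banding in input RNA lay in the same direction in TRAP RNA, and most of them were called there too. Of the members, 134 rose and 87 fell in input RNA (limma, adjusted p under 0.05), beside 2.44% and 1.65% of all genes tested. In TRAP RNA, 144 rose and 101 fell, beside 2.21% and 1.56%. All groups shared the spread in this fit, though the band TRAP pair differed more than the others. With weights per group, 60 members rose and 34 fell in TRAP RNA, and 382 rose and 394 fell in input RNA. The counts of the 2 RNAs are therefore not to be compared closely. The comparisons in input and in TRAP RNA share no library, but both use the same spread per gene from 1 fit. A gene with a small spread is favoured in both, so calls shared by the 2 RNAs are not independent. The 134 that rose in input had a median change of 0.67 on the log2 scale there and 0.64 in TRAP RNA. All 134 were higher in TRAP RNA, 88 of them past the test, which is 65.7% of the input calls and 61.1% of the TRAP calls. The 87 that fell in input had medians of -0.55 in input and -0.52 in TRAP RNA, all 87 lay below 0 in TRAP RNA, and 48 passed there. Seen from TRAP RNA, the 144 that rose had medians of 0.70 there and 0.58 in input, and all 144 were higher in input. The 101 that fell in TRAP RNA had medians of -0.62 there and -0.48 in input, where 93 of them lay below 0 and 48 (47.5%) were called. Of these 101, 36 had an unadjusted p under 0.05 for the change in ratio and 81 had an interval within 2-fold. Each of these sets was chosen by its values in one RNA, which favours a larger median there. Across the 4807 members, the changes in the 2 RNAs had a Pearson correlation of 0.62 and a Spearman correlation of 0.60, as a description across genes that share the same 8 libraries.

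**Figure D2:**
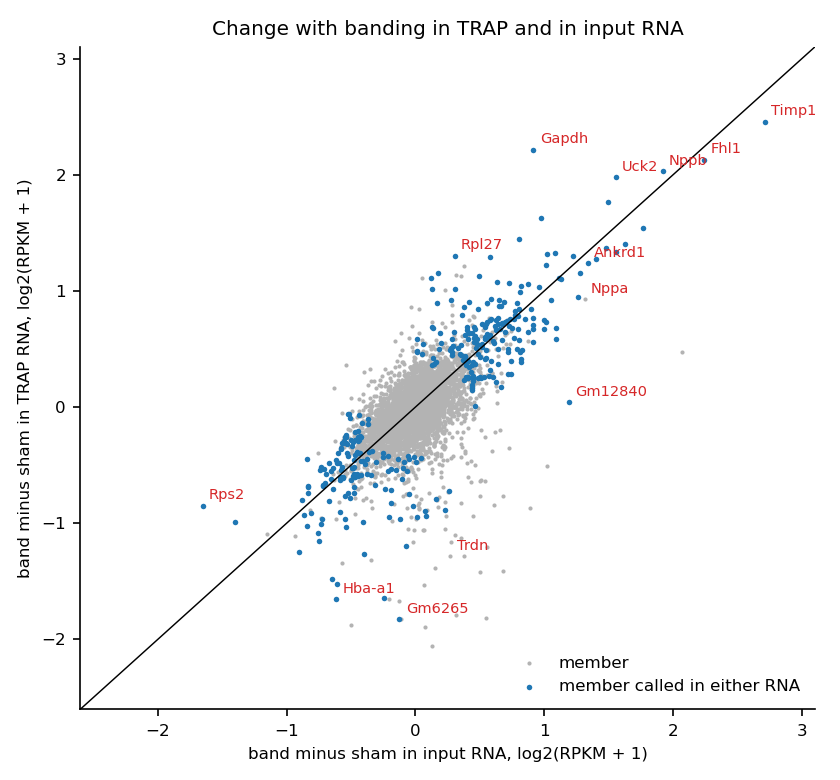
Band minus sham difference in TRAP RNA (y axis) against that in input RNA (x axis), both in log2(RPKM + 1), 1 point per member, with members called in either RNA in blue and the line of equal change in black. Nppb, Timp1, Fhl1 and Ankrd1 lie near the line, Gapdh and Rpl27 lie above it, and points such as Trdn and Gm6265 lie below it.

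The genes known to rise under pressure overload are described first. Nppb encodes the B-type natriuretic peptide, which the ventricle secretes when stretched. Its input level was 872 and 865 RPKM after sham surgery and 3081 and 3514 RPKM after banding, and its TRAP level was 1512 and 1583 RPKM after sham surgery and 5925 and 6735 RPKM after banding. The band libraries were above the sham libraries in both RNAs without overlap. Nppb rose 3.79-fold in input (adjusted p = 5.8e-04) and 4.08-fold in TRAP RNA (adjusted p = 4.3e-04). Its change in ratio was 0.11 ± 0.14 (SE), with an interval from -0.23 to 0.45. Nppb stood higher in TRAP than in input RNA after either surgery, by 0.83 and 0.94 on the log2 scale.

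Ankrd1, a stretch-sensed ankyrin repeat protein of the sarcomere and nucleus, had 1227 and 1197 RPKM in sham input, beside 3407 and 2762 RPKM in band input. Its TRAP values were 885 and 799 RPKM after sham surgery, beside 2176 and 1819 RPKM after banding. It rose 2.53-fold in input and 2.36-fold in TRAP RNA, with a change in ratio of -0.10 ± 0.19. Timp1, a secreted inhibitor of matrix metalloproteinases, had 16.9 and 18.3 RPKM in sham input, beside 126 and 116 RPKM in band input. Its TRAP levels were 7.84 and 10.05 RPKM after sham surgery and 50.8 and 55.8 RPKM after banding. Timp1 rose 6.56-fold in input and 5.49-fold in TRAP RNA, with a change in ratio of -0.26 ± 0.18. Fhl1, a LIM domain protein of the sarcomere, went from 40.1 and 41.1 to 177 and 216 RPKM in input and from 28.0 and 29.6 to 127 and 132 RPKM in TRAP RNA, with a change in ratio of -0.11 ± 0.15.

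Of the 31 genes on the list reported higher under pressure overload, 17 were members. In input RNA 13 of them rose and in TRAP RNA 14 rose, beside 2.44% and 2.21% of all genes tested, and none fell in either. Their median change was 1.13 in input and 1.24 in TRAP RNA, while their median change in ratio was -0.03 beside 0.00 over all members, and 16 of 17 intervals lay within 2-fold. The largest positive estimate was that of Uck2, a uridine and cytidine kinase of the pyrimidine salvage pathway. Uck2 was at 14.1 and 15.0 RPKM in sham input, 43.3 and 45.9 in band input, 10.8 and 9.45 in sham TRAP and 39.6 and 46.2 in band TRAP RNA. Its change in ratio was 0.43 ± 0.15, with an unadjusted p of 0.026 and an adjusted p of 0.962. Nppa, the atrial natriuretic peptide, could not be placed: its band libraries were 261 and 459 RPKM in input and 194 and 571 RPKM in TRAP RNA, beside 138 to 182 RPKM in all sham libraries. Its change in ratio was -0.38 ± 0.67. Acta1, the skeletal actin of the fetal heart program, had a change of -0.07 ± 0.26, and Myh7, the slow myosin heavy chain, one of 0.17 ± 0.21. On the list of 18 genes reported lower under overload, 13 were members, with a median change in ratio of -0.00. Among them were Atp2a2, the calcium pump of the sarcoplasmic reticulum, at 0.11 ± 0.19, and Myh6, the fast myosin heavy chain, at 0.19 ± 0.19.

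The promoter of Nppb is shown because Nppb had the highest level after banding among the 13 overload genes called higher in both RNAs. The sequence, from RefSeq on GRCm38.p6, is that of the 150 bases before the gene's start, chr4:147985750-147985899 on the plus strand, 5′ to 3′. The capitals mark, in order along the sequence, the complement of an M-CAT element (CATTCC, bound by TEAD factors), a GATA element (AGATAA) and a TATA box (TATAAA).

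Nppb: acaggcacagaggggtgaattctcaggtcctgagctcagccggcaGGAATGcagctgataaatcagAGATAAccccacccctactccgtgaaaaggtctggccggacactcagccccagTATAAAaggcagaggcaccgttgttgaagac

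Searched on both strands, the M-CAT letters are in 7.64% of 27020 promoter windows of this length, the GATA letters in 5.76%, the TATA letters in 8.08% and an AP-1 element (TGANTCA), not found in this window, in 4.27%. Of the 13 genes, 12 had a window, and 2 of these held M-CAT letters. These are matches of letters and not sites of binding.

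**Figure D3:**
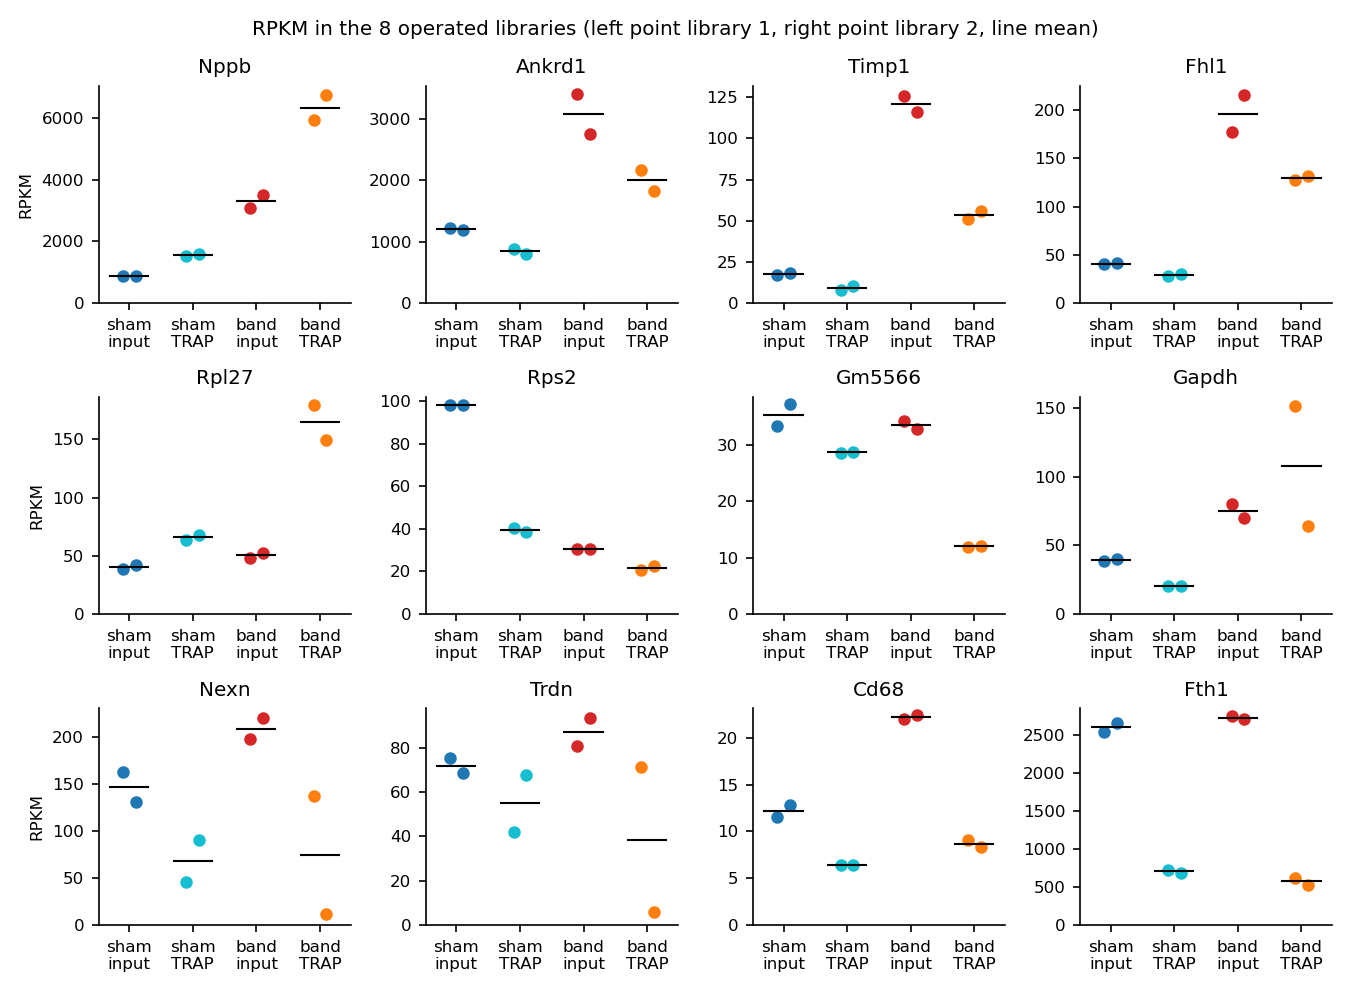
RPKM (y axis, from 0) of 12 members in the 8 operated libraries, with points for the 2 libraries and a line at the mean of each group. In Nppb, Ankrd1, Timp1 and Fhl1 both RNAs are higher after banding, in Rpl27 the band TRAP libraries stand apart at 179 and 150 RPKM, and in Nexn and Trdn band TRAP library 2 is the low one.

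The 12 highest and 12 lowest estimates whose 4 band ratios lay outside the 4 sham ratios are described next. None passed the adjusted test. Among the highest stood Rpl27, a protein of the large ribosomal subunit. It was at 39.1 and 42.0 RPKM in sham input, 48.2 and 52.5 in band input, 63.5 and 68.2 in sham TRAP and 179 and 150 in band TRAP RNA. Input levels were close after the 2 operations, and the band TRAP libraries were the highest of the 8. Its change in ratio was 1.00 ± 0.16, or 2.00-fold, with an interval from 0.63 to 1.37 and an adjusted p of 0.283. Without band TRAP library 1 the estimate was 0.87 (adjusted p = 0.021), and without library 2 it was 1.13 (adjusted p = 0.0114).

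Rps2, a protein of the small subunit, had another pattern. Its input level was 98.0 and 98.0 RPKM after sham surgery and 30.4 and 30.6 RPKM after banding. Its TRAP level was 40.4 and 38.3 RPKM after sham surgery and 20.5 and 22.4 RPKM after banding. Rps2 thus fell in both RNAs, by 1.65 on the log2 scale in input (adjusted p = 4.3e-04) and by 0.85 in TRAP RNA (adjusted p = 0.0044), and the smaller fall in TRAP RNA gave a change in ratio of 0.80 ± 0.11 (adjusted p = 0.211). Ribosomal protein genes have many near-identical processed copies in the genome, and how the authors counted reads that fit several copies was not given, so values of Rps2, Rpl27 and their copies are uncertain.

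Gapdh, the glycolytic enzyme, had the highest estimate, 1.30 ± 0.48, and its copies in the genome raise the same doubt. It stood at 38.8 and 39.7 RPKM in sham input, 80.3 and 69.9 in band input, 20.3 and 20.6 in sham TRAP, and 151 and 64.0 in band TRAP RNA, where the 2 libraries differed over 2-fold. The estimate was 0.69 without band TRAP library 1 and 1.91 without library 2. Ndufb4, a subunit of respiratory complex I, had 588 and 843 RPKM in sham input, 721 and 711 in band input, 1248 and 1109 in sham TRAP and 2306 and 1934 in band TRAP RNA. Its change in ratio was 0.82 ± 0.25. Gng5, a gamma subunit of heterotrimeric G proteins, had 213 and 234 RPKM in sham TRAP and 604 and 399 in band TRAP RNA, beside 79.8 to 123 in input, with a change of 0.82 ± 0.34. Fam36a, now named Cox20, an assembly factor of cytochrome oxidase, had 92.2 and 95.5 RPKM in sham TRAP and 174 and 168 in band TRAP RNA, with a change of 0.89 ± 0.30. In each of these 3 the band TRAP libraries were the highest, and the 2 sham input libraries differed more than the band input libraries. The rest of the highest were Gm10053, Gm8430, Gm11518, Gm15516 and Gm13573, which are predicted genes, and Mir5102, a microRNA gene of 87 bases, with estimates from 0.78 to 1.06. RefSeq lists Gm10053 as a pseudogene of the cytochrome c gene, Gm8430 as a pseudogene of the Rps27a family and Gm13573 as one of the Rpl10a family.

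Among the lowest, 2 kinds of pattern stood side by side. In the first, both band TRAP libraries were low. Gm5566, a pseudogene in RefSeq, was at 33.4 and 37.3 RPKM in sham input, 34.3 and 32.9 in band input, 28.5 and 28.8 in sham TRAP and 11.9 and 12.1 in band TRAP RNA, with a change of -1.12 ± 0.12 and an adjusted p of 0.151. Gm6265, a Cox6c-like pseudogene, was at 88.4 and 105 RPKM in sham TRAP and 30.1 and 23.1 in band TRAP RNA, beside 55.9 to 74.1 RPKM in input, with a change of -1.70 ± 0.25. Rpl23a-ps3, a pseudogene of a large subunit protein, was at 60.6 and 58.8 RPKM in sham TRAP and 26.7 and 37.8 in band TRAP RNA, with a change of -1.12 ± 0.22. All of these fell in TRAP RNA past the test, with adjusted p values of 0.0016, 0.0045 and 0.033, and were not called in input. Gm12840 had a different course: its input level rose from 73.1 and 59.3 to 152 and 152 RPKM, while its TRAP level was 9.59 and 10.9 after sham surgery and 13.0 and 8.55 after banding, for a change in ratio of -1.15 ± 0.27. Gm14303 had 992 and 942 RPKM in sham TRAP and 203 and 469 in band TRAP RNA, with a change of -1.40 ± 0.47.

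In the second kind, band TRAP library 2 alone was low. Rpl5, which binds the ribosomal RNA of the large subunit, was at 7.40 to 12.02 RPKM in 7 libraries and at 1.89 RPKM in that one. Cetn2, a centrin of the centriole, was at 25.1 to 28.2 RPKM in 7 libraries and at 6.05 RPKM in that one. Nop58, a core protein of box C/D nucleolar particles, was at 9.52 to 23.1 RPKM and at 2.62 RPKM. Their estimates, -1.27, -1.12 and -1.45, were -0.18, -0.18 and -0.54 without band TRAP library 2. Gm15118 went from -2.11 to -0.55 in the same way.

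**Figure D4:**
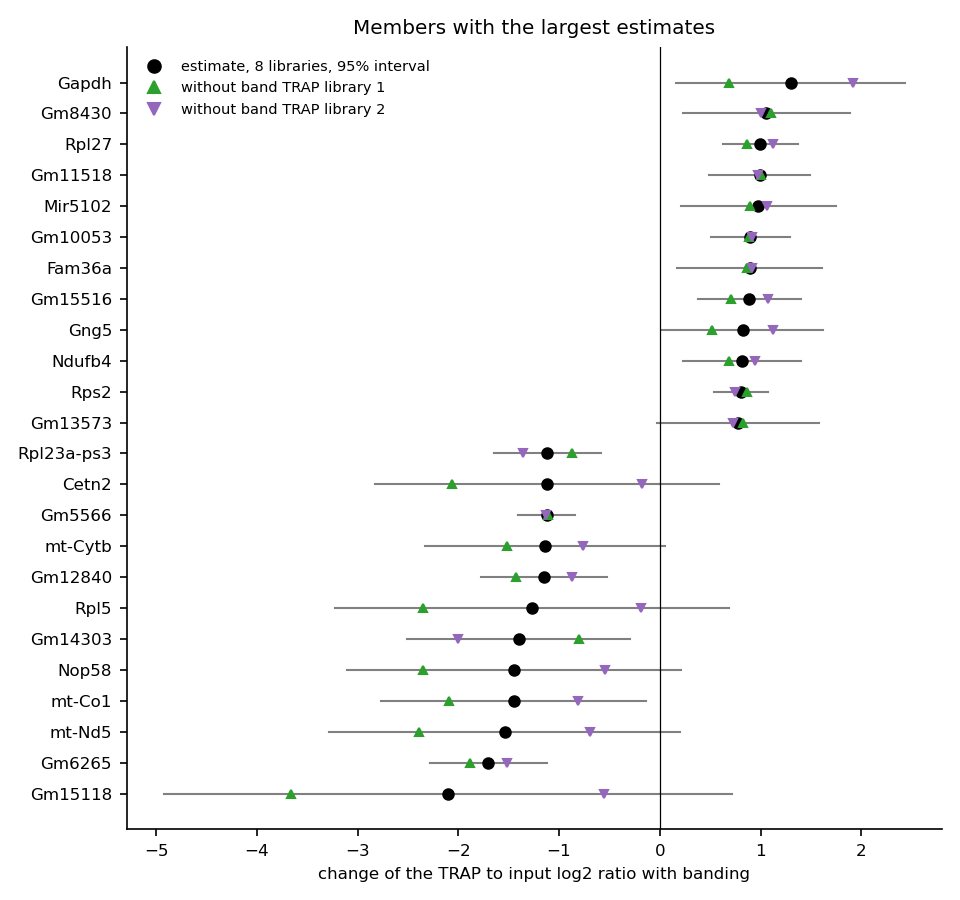
Change of the TRAP to input log2 ratio with banding (x axis) for the 12 highest and 12 lowest members by the rule above, with the estimate and its 95% interval in black and grey. Triangles give the estimate without either band TRAP library. They lie close to the estimate in Gm5566, Rps2 and Rpl27 and far apart in Gm15118, Rpl5, Cetn2 and Gapdh.

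Band TRAP library 2 lay more than 2-fold below each of the other 7 libraries in 52 members, and band TRAP library 1 did so in 6. Of the 52, 21 were predicted genes or pseudogenes, 5 were mitochondrially encoded and 26 were other genes. They included Trdn, which anchors calcium release proteins in the sarcoplasmic reticulum, at 42.2 to 93.7 RPKM in 7 libraries and 5.93 in that one. Nexn, an actin-binding protein of the Z-disc, was at 46.0 to 220 RPKM and 11.97 RPKM. Uqcrb, a subunit of complex III, was at 153 to 535 RPKM and 45.2 RPKM, and Eif3e, a subunit of initiation factor 3, was at 24.7 to 34.6 RPKM and 4.95 RPKM. The sham TRAP pair differed in these genes too. Libraries 1 and 2 of it had 42.2 and 67.9 RPKM for Trdn, 46.0 and 89.7 for Nexn, 161 and 368 for Uqcrb and 26.2 and 32.6 for Eif3e. Others of the 52, such as Rpl5 and Skp1a, were close or lower in sham TRAP library 2. TRAP and input RNA of the CAG line without surgery, which are not part of the contrast, were also measured in 1 library each. There, 51 of the 52 were lower in TRAP than in input RNA, 38 of them by 2-fold or more, with a median log2 difference of -2.19 beside -0.04 over all members, of which 6.20% were lower by 2-fold or more. In those libraries Nexn had 184 RPKM in input and 7.74 RPKM in TRAP RNA, and Trdn had 95.3 and 12.7 RPKM. The plot of list medians gives each list with and without that library.

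RNA of the ribosome itself came next. Of 81 cytosolic ribosomal protein genes, 80 were members. At an unadjusted p under 0.05, 3 had a higher and 8 a lower ratio, beside 1.97% and 2.81% of all genes tested. None of these 80 passed the adjusted test. Their median change in ratio was -0.07, with 31 estimates above and 49 below 0, and a range from -1.76 (Rpl22l1) to 1.00 (Rpl27). In TRAP RNA 6 rose and 1 fell, beside 2.21% and 1.56% of all genes tested. In input 1 rose and 1 fell, beside 2.44% and 1.65%. Rpl10a, the protein usually tagged in this method, was at 7.58 to 9.99 RPKM in all 8 libraries and had a change in ratio of -0.11 ± 0.14. The 72 mitochondrial ribosomal protein genes had a median of -0.01. Within this group Mrps21 had 1292 and 1145 RPKM in sham TRAP and 1621 and 1709 in band TRAP RNA, with a change of 0.57 ± 0.15 (unadjusted p = 0.0068). Mrps36 stood at 380 and 375 RPKM in sham TRAP and 251 and 267 in band TRAP RNA, with a change of -0.39 ± 0.11 (unadjusted p = 0.0083). Both had an adjusted p of 0.867.

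The 42 translation factor genes had a median change of -0.13, with 31 estimates below 0, and the median ran from -0.15 without sham TRAP library 1 to 0.00 without band TRAP library 2. In this list 2 of 42 had an unadjusted p under 0.05, both lower, which is near the 4.78% of all genes tested. Eif1, which helps the ribosome choose its start codon, was at 675 to 721 RPKM in all 4 input libraries, 758 and 813 RPKM in sham TRAP and 554 and 575 RPKM in band TRAP RNA. Its change in ratio was -0.48 ± 0.11, with an adjusted p of 0.867. Pabpc1, the cytoplasmic poly(A)-binding protein, was at 61.7 and 63.3 RPKM in sham input, 78.1 and 67.3 in band input, 29.0 and 31.6 in sham TRAP and 25.7 and 25.7 in band TRAP RNA, with a change of -0.44 ± 0.14. The 15 aminoacyl-tRNA synthetase genes, which charge transfer RNAs, all had intervals within 2-fold and estimates from -0.03 to 0.16. RNA-binding proteins and splicing factors had 26 of 36 estimates below 0 and a median of -0.08, which was 0.01 without band TRAP library 2 and -0.22 without library 1. Hnrnpa0, a nuclear ribonucleoprotein, was lowest of these at -0.70 ± 0.21.

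Genes under control by upstream reading frames and the integrated stress response had 13 of 15 estimates below 0, with a median of -0.11. It ranged from -0.25 without band TRAP library 2 to 0.01 without library 1. Sat1, an enzyme that acetylates polyamines, was at 21.6 to 25.5 RPKM in input and in sham TRAP RNA and at 19.9 and 16.0 RPKM in band TRAP RNA, with a change of -0.49 ± 0.16 (unadjusted p = 0.017, adjusted p = 0.947). Cebpb, a transcription factor of the stress response, had a change of -0.52 ± 0.26. Herpud1, a factor of endoplasmic reticulum protein disposal, and Eif4ebp1, a repressor of cap-dependent initiation, were the 2 above 0, at 0.22 ± 0.14 and 0.23 ± 0.14.

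Ferritins store iron, and their messages carry an iron-responsive element by which translation is repressed when iron is low. Of the 6 members on the list of ferritins and iron handling, 4 had an unadjusted p under 0.05, 3 of them with a lower ratio. Over all genes tested the share was 4.78%. Fth1, the heavy chain, was at 2545 and 2657 RPKM in sham input, 2746 and 2706 in band input, 729 and 688 in sham TRAP and 617 and 531 in band TRAP RNA. Ftl1, the light chain, was at 122 and 122 RPKM in sham input, 139 and 123 in band input, 37.9 and 33.7 in sham TRAP and 21.2 and 30.1 in band TRAP RNA. Their changes in ratio were -0.37 ± 0.14 and -0.59 ± 0.23, with adjusted p values of 0.962 and 0.981. Both stood far lower in TRAP than in input RNA after either operation, by 1.88 and 2.25 on the log2 scale for Fth1 and by 1.74 and 2.33 for Ftl1. Cp, a copper-bearing ferroxidase, had a change of -0.90 ± 0.37, which was -0.44 without band TRAP library 2.

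The 13 mitochondrially encoded genes are translated inside mitochondria on other ribosomes than those that carry the tag. They made up 13.7% to 15.9% of the reads in input, and in TRAP RNA 0.147% and 0.293% after sham surgery and 0.138% and 0.0587% after banding. Their median change in ratio was -1.08, with 12 of 13 estimates below 0, and it was -0.48 without band TRAP library 2 and -1.75 without sham TRAP library 1. None of their intervals lay within 2-fold. For mt-Co1, a subunit of cytochrome oxidase, input was 23166 to 27394 RPKM, sham TRAP was 391 and 629 RPKM, and band TRAP was 245 and 100 RPKM, for a change of -1.45 ± 0.56.

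Nuclear genes of mitochondrial metabolism had medians close to that of all members. The 37 complex I genes and the 42 nuclear genes of complexes II to V had medians of 0.02 each, and of 0.04 and -0.01 without band TRAP library 2. Fatty acid oxidation had 15 of 21 estimates above 0 and a median of 0.11, which was -0.01 without band input library 2 and 0.17 without band TRAP library 2. The citric acid cycle had 14 of 19 above 0 and a median of 0.10, which stayed between 0.06 and 0.16 when any 1 library was left out. Ogdh, a subunit of the oxoglutarate dehydrogenase complex, was at 289 and 294 RPKM in sham input, 262 and 236 in band input, 213 and 209 in sham TRAP and 221 and 234 in band TRAP RNA, with a change of 0.34 ± 0.12 (unadjusted p = 0.024, adjusted p = 0.962).

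Among sarcomere genes, the list of giant and Z-disc genes had the highest median of all lists, 0.19, with 21 of 26 estimates above 0. The median ran from 0.11 without band input library 2 to 0.23 without band input library 1. In TRAP RNA 10 of the 26 rose and in input 8 rose, beside 2.21% and 2.44% of all genes tested, and none fell. Myot, a titin-associated Z-disc protein, was at 6.66 and 7.21 RPKM in sham input, 12.6 and 13.1 in band input, 5.09 and 4.91 in sham TRAP and 17.2 and 13.7 in band TRAP RNA. Myot rose in both RNAs, and more in TRAP RNA by estimate, with a change in ratio of 0.64 ± 0.17 (unadjusted p = 0.0062, adjusted p = 0.867). Flnc, a filamin that crosslinks actin at the Z-disc, was at 15.8 and 15.5 RPKM in sham input, 32.4 and 33.0 in band input, 8.22 and 8.52 in sham TRAP and 20.4 and 24.4 in band TRAP RNA, with a change of 0.30 ± 0.14. Myoz2, a calcineurin-binding Z-disc protein, had a change of 0.42 ± 0.17 and Nexn, as given above, one of -1.14 ± 1.35. Of 35 genes of calcium handling and ion channels 24 were members, Trdn among them, with a median of 0.02, which was 0.14 without band TRAP library 2 and -0.05 without library 1.

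Markers of fibroblasts and of macrophages had estimates mostly below 0. Among 11 fibroblast members 10 were below 0, with a median of -0.14, which was -0.29 without band TRAP library 1. In input 4 of them rose and 1 fell, beside 2.44% and 1.65% of all genes tested. In TRAP RNA 0 rose and 1 fell, beside 2.21% and 1.56%. For the change in ratio, 1 of the 11 had an unadjusted p under 0.05, beside 4.78% of all genes tested, and 0 an adjusted one. Col1a1, a chain of collagen I, was at 34.0 and 33.8 RPKM in sham input, 49.0 and 44.2 in band input, 10.6 and 10.2 in sham TRAP and 13.0 and 11.5 in band TRAP RNA, with a change in ratio of -0.22 ± 0.13. All 18 fibroblast markers summed to 998 to 1001 RPKM in sham input, 1082 to 1180 in band input, 530 to 549 in sham TRAP and 584 to 609 in band TRAP RNA, with none at 0. Among 11 macrophage and leukocyte members 9 were below 0, with a median of -0.23, which was -0.42 without band input library 2 and -0.08 without band input library 1. Cd68, a lysosomal glycoprotein of macrophages, was at 11.5 and 12.9 RPKM in sham input, 22.1 and 22.4 in band input, 6.41 and 6.38 in sham TRAP and 9.09 and 8.30 in band TRAP RNA. It rose 1.76-fold in input (adjusted p = 0.0067) and was not called in TRAP RNA (adjusted p = 0.065), and the difference between the 2, -0.43 ± 0.13, had an unadjusted p of 0.011 and an adjusted p of 0.901. The 20 macrophage and leukocyte markers summed to 630 to 650 RPKM in sham input and 760 to 902 in band input, and to 380 to 391 and 411 to 483 in TRAP RNA, with none at 0. The part of cell numbers in these values was not tested.

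Smooth muscle and endothelial members had medians of 0.04 and -0.07. When 1 library was left out the first ran from -0.05 (without band input library 2) to 0.20 (without band TRAP library 2) and the second from -0.12 to 0.02 without the same libraries. Myl9, a regulatory myosin light chain of smooth muscle, was lowest in its list at 56.3 and 54.0 RPKM in sham input, 45.4 and 50.3 in band input, 76.8 and 72.8 in sham TRAP and 34.3 and 43.0 in band TRAP RNA. Myl9 fell in TRAP RNA (-0.94, adjusted p = 0.010) and was not called in input (-0.20), with a change in ratio of -0.74 ± 0.17 and an adjusted p of 0.837. The summed endothelial markers were 1330 and 2250 RPKM in the 2 band TRAP libraries and 1363 to 1568 RPKM in the other 6. The 5 erythroid members had estimates below 0 and a median of -0.49, which was -0.16 without band TRAP library 1 and -0.69 without library 2. Hba-a1, an alpha globin, was at 1264 and 1235 RPKM in sham input, 731 and 910 in band input, 103 and 103 in sham TRAP and 21.7 and 47.3 in band TRAP RNA. Erythroid markers summed to 1549 to 2572 RPKM in input and to 73.0 to 220 RPKM in TRAP RNA, and 1 of the 9 was at 0 in TRAP RNA.

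**Figure D5:**
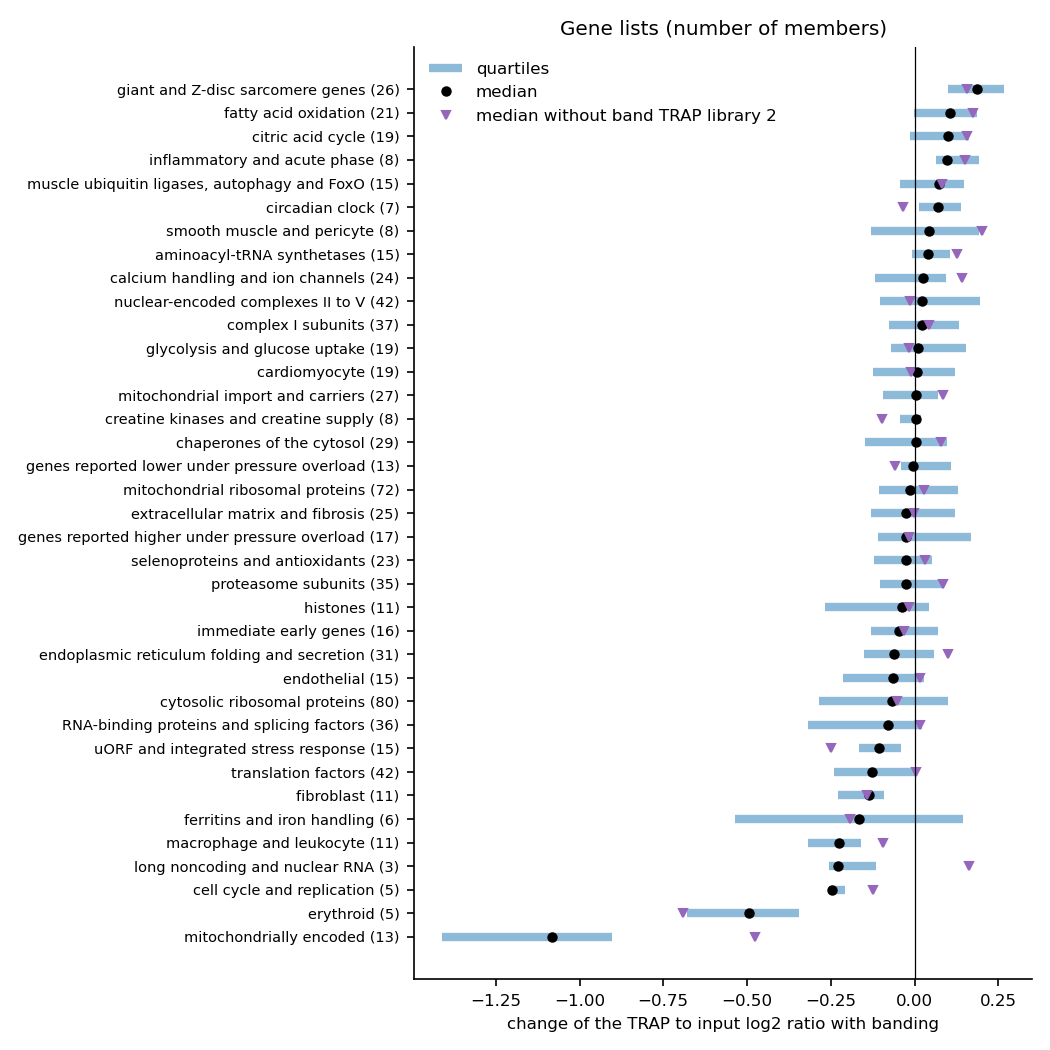
Median change of the TRAP to input log2 ratio with banding (x axis) for each gene list with at least 1 member, with the number of members in brackets, the quartiles as bars and the median without band TRAP library 2 as triangles. Most medians lie within 0.25 of 0, and the lowest, of the mitochondrially encoded genes, moves from -1.08 to -0.48.

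TRAP to input ratios were lower for longer transcripts. Here each TRAP library was set against the input library of the same number, which no label states to be a pair. Per doubling of the deposited length the ratios were lower by 0.16 and 0.13 log2 units after sham surgery. After banding they were lower by 0.09 and 0.08. Accordingly, 256 members under 500 bases had a median change in ratio of -0.17, and 633 members over 4000 bases had one of 0.05. By mean level, medians ran from -0.01 to 0.01 over 5 classes from under 10 to over 200 RPKM.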

How the data were processed

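The authors deposited RPKM for 34306 genes in 12 libraries, with a transcript and its length per gene. The submitters' processing notes name HTSeq 0.5.3, TopHat 1.4, CASAVA 1.8.2 and the build NCBIM37, and give no settings or annotation. Libraries were poly(A) selected, random primed and not marked for strand, per the labels' protocols, so overlapping and antisense genes cannot be told apart. Columns of the table were matched to groups by name, and no source used here says how the l1 and l2 samples of each library were joined. The table had 0 columns of other samples.

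RPKM times length gave whole reads, within 0.02 reads, for 233410 of 233410 positive values, which gave the library totals. A member at 5 RPKM with 2000 bases rests on at least 286 reads. log2(RPKM + 1) was fitted with limma 3.58.1 (R 4.3.3, variance trend, two-sided) in 1 model over 12 libraries with a mean per group. Genes entered if 2 or more libraries reached 1 RPKM. Residual degrees of freedom were 4 and those of limma's prior 3.02, and all groups shared the spread. A gene was called at a Benjamini-Hochberg adjusted p under 0.05 over all 11654 genes. Fold changes are on the log2(RPKM + 1) scale, which understates changes of low genes. Errors are limma standard errors. The fit was run on simulated data with the same spread per gene in all groups. That run does not cover the wider spread of the band TRAP pair.

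Genes named in the text were the largest estimates with ratios that do not overlap, filled to 12 in each direction, up to 5 members per gene list by size of estimate, and 8 genes that check the surgery and the tag. Symbols in the form of a date were not named. The text describes a part of the genes these rules give, and the others are not reported here. Fhl1 and genes low in a single library were chosen after their values were seen. The members and gene lists were chosen with earlier results of these data known. Sequences and gene aliases are from RefSeq tables on GRCm38.p6, matched by symbol, and no coordinates of NCBIM37 were used. Alternatives covered the pseudocount, filters, scaling, variance model, transcript length, voom on recovered reads, member threshold, pairing and each library left out.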

Additional observations from a re-analysis of the deposited data

How the results depend on the processing

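The counts of 0 called higher and 0 called lower for the change in ratio held among members under all 18 alternatives that keep the 8 libraries, and leaving out each library in turn gave 0 to 9 higher and 0 to 117 lower. The other member thresholds, and the set without members far below in a single band TRAP library, reuse the main fit. That fit called 0 of all 11654 genes, so these alternatives could only return 0. Beyond the members, 2 genes were called with a pseudocount of 0.1 and 2 without a filter. Same-numbered libraries were checked for pairing. Their deviations had correlations of -0.29 (sham input and TRAP), 0.04 (band) and -0.56 (sham and band TRAP). The numbers were therefore not taken to pair the samples. A replicate block for the 4 pairs left 2 residual degrees of freedom. Without and with the length trend removed, it gave 0 and 0 called, and the smallest adjusted p was 0.777 and 0.714. A block of the number over the 4 groups also gave 0 and 0. With the sham numbers crossed, chosen after seeing the data, 0 and 0 were called. Band against sham within 1 RNA could not be fitted with the 4 pairs, since each pair lies within a surgery. The number block gave 90 higher and 55 lower in TRAP RNA and 80 and 34 in input RNA.

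Members with an interval within 2-fold numbered 4066 to 4518 when a library was left out, 6546 of members at 2 RPKM or more and 2905 of those at 10 RPKM or more. Band against sham in TRAP RNA gave 14 to 655 higher and 3 to 608 lower when a library was left out, 64 and 42 without a filter, 60 and 34 with weights per group, and 94 higher at 10 RPKM or more. In input RNA it gave 10 to 391 higher and 2 to 424 lower when a library was left out, 382 and 394 with weights per group, 133 lower at 2 RPKM or more and 83 higher at 10 RPKM or more. The cause of these shifts was not tested, save that fewer or more genes enter under other thresholds. Of 4531 estimates of 197 named genes under the alternatives, 4363 moved by less than their error, 121 moved by more and 47 became called, while 952 of 962 list medians moved by less than the spread between libraries. Some alternatives change the error of an estimate and not the estimate. These are the filters, the operated libraries alone, no variance trend, weights per group and the replicate blocks with the length trend kept. Under these no estimate or list median could move, so both tallies include outcomes fixed in advance. The precision is limited by the 2 libraries a group and by the spread of the band TRAP pair.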

Other observations

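The calls made without band TRAP library 1 were set beside those made without library 2, and 10 members were called in the same direction in both. The 2 fits share the other 6 libraries of the 4 groups, so a shared direction is no independent support. These 10 were chosen after their values were seen. Among them 3 had a higher ratio after banding, Gapdh, Rpl27 and Rps2, and 7 a lower one, Gm10222, Gm12254, Gm14303, Gm5566, Gm6265, Rpl23a-ps3 and Rps27a-ps2. All 7 are predicted genes or pseudogenes, beside 452 of 4807 members (9.40%) with such names. Gm12254 was at 86.5 and 95.6 RPKM in sham input, 96.7 and 95.8 in band input, 93.1 and 86.1 in sham TRAP and 44.4 and 48.2 in band TRAP RNA, with a change in ratio of -1.02 ± 0.13. Rps27a-ps2, a pseudogene of a gene that encodes ubiquitin fused to a ribosomal protein, was at 92.2 and 82.9, 104 and 106, 82.0 and 85.0, and 51.5 and 49.2 RPKM in the same order, with a change of -0.98 ± 0.12. In both, input levels were close or slightly higher after banding and the 2 band TRAP libraries were the lowest of the 8. Gm10222, listed by RefSeq as a pseudogene, was at 358 and 348 RPKM in sham input and 227 and 222 in band input. Its TRAP levels were 20.5 and 22.8 RPKM after sham surgery and 7.45 and 6.79 RPKM after banding. With all 8 libraries these had adjusted p values of 0.151, 0.151 and 0.216.

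Some lists had not yet been described. Proteasome subunits, which degrade tagged proteins, had a median change in ratio of -0.03 over 35 members (0.08 without band TRAP library 2), with 31 intervals within 2-fold, and Psmd7 was at 0.28 ± 0.11. Cytosolic chaperones had a median of 0.00 over 29 members, and endoplasmic reticulum folding genes one of -0.06 over 31, which was 0.10 without band TRAP library 2 and -0.10 without band input library 2. Sdf2l1, a chaperone partner of the endoplasmic reticulum, rose in input from 12.5 and 13.6 to 19.4 and 17.4 RPKM and was at 9.63 and 9.48 and then 9.94 and 9.35 RPKM in TRAP RNA, for a change in ratio of -0.45 ± 0.13 (unadjusted p = 0.0095, adjusted p = 0.880). Of 16 immediate early members, 6 rose and 1 fell in input, beside 2.44% and 1.65% of all genes tested, and 5 rose and 0 fell in TRAP RNA, beside 2.21% and 1.56%. Their median change in ratio was -0.05, and it ran from -0.12 to 0.05 when 1 library was left out. Tubb5, a beta tubulin, was at 36.3 and 36.1 RPKM in sham input, 62.4 and 60.3 in band input, 22.9 and 21.1 in sham TRAP and 28.7 and 29.9 in band TRAP RNA. It rose in both RNAs, with a change in ratio of -0.35 ± 0.11 (adjusted p = 0.947). Dnajc19, a subunit of the mitochondrial import motor, was at 68.2 and 66.6 RPKM in sham TRAP and 104 and 94.1 in band TRAP RNA, beside 30.2 to 36.0 in input, with a change of 0.49 ± 0.15 (adjusted p = 0.901).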
